A study of Mus musculus with 12 samples.

Results

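The mitochondrial ribosomal protein genes are the nuclear genes whose symbols begin with Mrpl or Mrps followed by a digit. The rule found 76 of the 13775 genes in the table, 49 Mrpl genes and 27 Mrps genes, and 2 pseudogenes with such symbols were left out. All 76 are protein-coding genes in GENCODE M21. Satellite cells (SCs), the resident stem cells of skeletal muscle, had been sorted from 2-month-old mice in lots of about 800 for RNA sequencing. The study asked what loss of FoxM1, a forkhead transcription factor of the cell cycle, changes in SCs at rest and in SCs of regenerating muscle. There were 4 groups of 3 libraries. FoxM1fl/fl mice carry the floxed alleles without Cre, and FoxM1-cKO mice carry the same alleles with Pax7-Cre, which is active in the SC lineage. The injured mice had received BaCl2 in the tibialis anterior and gastrocnemius muscles and their SCs were taken 48 h post-injury, and the uninjured mice had not been injured. The labels call the uninjured cells quiescent. The mice were on the C57BL/6J background. The study describes its replicates as biological, but the labels tie no library to a mouse, so that p-values measure the spread between libraries, which may be technical.

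Mitochondria hold ribosomes of their own, which translate the few mRNAs encoded by mitochondrial DNA into core subunits of the respiratory chain and of ATP synthase. The ribosomal RNAs come from mitochondrial DNA, while the proteins are made in the cytosol from the Mrpl and Mrps genes and imported. The large subunit carries the peptidyl transferase centre and the small subunit decodes the mRNA. Quiescent SCs are known for few mitochondria and low respiration, and both rise when the cells are activated by injury. The symbols do not match the subunits throughout, because the products of Mrps18a and Mrps30 sit in the large subunit and that of Mrps36 is now known as a part of a dehydrogenase complex.

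Of the 9 members that were higher in injured FoxM1-cKO than in injured FoxM1fl/fl SCs, 8 had a promoter sequence in the RefSeq set of GRCm38.p6, and the 250 bases before the transcription start were read for them. The 4 sequences that hold the core motif of ETS transcription factors, CGGAAG on either strand, are shown 5' to 3' on the strand of the gene with the motif in capitals, because of the 6 motifs tried it was found in the most members. Mrpl3 is read from chr9:105053018-105053267, Mrpl10 from chr11:97041332-97041581, Mrps9 from chr1:42850983-42851232 and Mrps17 from chr5:129715247-129715496, each on the plus strand.
Mrpl3: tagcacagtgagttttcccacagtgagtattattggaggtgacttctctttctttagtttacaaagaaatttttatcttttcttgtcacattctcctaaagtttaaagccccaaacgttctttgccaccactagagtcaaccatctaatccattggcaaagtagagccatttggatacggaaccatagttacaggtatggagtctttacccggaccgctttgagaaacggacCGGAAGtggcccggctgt
Mrpl10: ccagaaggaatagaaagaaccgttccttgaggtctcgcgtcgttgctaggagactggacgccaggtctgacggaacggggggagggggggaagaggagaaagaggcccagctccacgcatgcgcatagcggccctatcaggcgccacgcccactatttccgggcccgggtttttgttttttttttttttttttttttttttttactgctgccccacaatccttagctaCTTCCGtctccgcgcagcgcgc
Mrps9: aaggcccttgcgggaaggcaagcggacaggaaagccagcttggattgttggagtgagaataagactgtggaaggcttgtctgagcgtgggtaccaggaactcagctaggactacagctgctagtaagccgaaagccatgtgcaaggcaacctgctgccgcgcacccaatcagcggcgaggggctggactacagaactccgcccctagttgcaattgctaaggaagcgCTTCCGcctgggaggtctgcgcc
Mrps17: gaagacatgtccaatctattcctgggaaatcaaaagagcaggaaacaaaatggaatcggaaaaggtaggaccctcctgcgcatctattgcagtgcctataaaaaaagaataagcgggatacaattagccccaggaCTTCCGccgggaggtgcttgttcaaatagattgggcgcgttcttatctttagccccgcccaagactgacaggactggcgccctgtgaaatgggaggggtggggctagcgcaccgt
The first base of the motif lay 18 bases before the RefSeq start in Mrpl3, 22 in Mrpl10, 23 in Mrps9 and 115 in Mrps17. For Mrpl3 and Mrpl10 the GENCODE starts given below fall inside the window, and by them the motif is at or past the start. The motif was present in 31 of the 69 members with a promoter (44.9%), in 1088 of 3537 tested genes (30.8%) and in 4139 of all 27025 promoters (15.3%). The other motifs were searched on both strands in the same window. The NRF1 site GCGCATGC was in 11.6% of members, 191 of 3537 tested genes and 2.56% of all promoters, and Mrpl10 was the only called member that held it. The forkhead motif GTAAACA was in 2.90% of members, 2.46% of tested genes and 3.54% of all promoters, and in none of the 8 called members. The FoxM1 site that the study looked for, (C/T)AAA(C/T)AA, is another sequence and was not searched. The cell cycle element TTTGAA was in 17.4, 12.4 and 18.3% of the same sets, the E-box CACGTG in 7.25, 10.5 and 6.86% and CCAAT in 36.2, 39.8 and 37.5%. A match is a run of letters, not a measured binding site, and overlaps between motifs were not removed.

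The libraries differed in ways that touch every value that follows. Their depth, recovered from the step that a single read makes in the FPKM, ran from 170701 to 642009 reads in the uninjured libraries, from 907558 to 1284055 in injured FoxM1fl/fl and from 1692998 to 2854534 in injured FoxM1-cKO. In the control genotype FoxM1 itself was listed at 5.48, 8.95 and 7.38 FPKM before and 32.8, 29.4 and 42.0 FPKM after injury. In the knockout it was listed at 0 in each library before and at 3.48, 1.28 and 0.832 FPKM after. Reads were estimated for the members only, so the FoxM1 values were not checked against the step of a single read. In 3 libraries (FoxM1fl/fl uninjured 1, FoxM1-cKO uninjured 2 and FoxM1fl/fl injured 1) the values largely follow a weighted sum of the other libraries of their group. In FoxM1fl/fl injured 1, for example, 25 of the 30 members found in injured 2 and not in injured 3 were present, at a median of 0.611 of their level in injured 2, and 6 of the 10 found in injured 3 and not in injured 2 at a median of 0.380. None of its 46 members was absent from both other libraries of its group, whereas 9 of the 56 members of FoxM1-cKO injured 1 were. The match was not complete. Of the 3423 genes found in FoxM1fl/fl uninjured 1, 477 were in neither other library of the group. This held for 170 of 1718 genes in FoxM1-cKO uninjured 2, with 2 of its 9 members among them. It also held for 494 of 6579 genes in FoxM1fl/fl injured 1, beside 1744 of 7577 in FoxM1-cKO injured 1. With these 3 weighted-sum libraries left out, limma called 0 genes of the whole table in each of the 5 comparisons made here, so that no call in what follows, of members or of other genes, was made in the other 9 libraries alone. That fit also has 3 libraries fewer, and the fold changes of the named members kept their sign in it. Of 9 SC markers in the table, 1 was above 0 in each uninjured FoxM1fl/fl library, 1 to 3 in uninjured FoxM1-cKO, 3 to 5 in injured FoxM1fl/fl and 6 in injured FoxM1-cKO. Itga7, one of the genes used for the sort, was at 0 in 10 of the 12 libraries. Cd34, also used for the sort, was at 9.60 FPKM in FoxM1-cKO uninjured 3 and at 0 in the other uninjured libraries. After injury it was at 2.55, 2.29 and 0 FPKM in FoxM1fl/fl and at 1.26, 0.5785 and 2.06 FPKM in FoxM1-cKO.

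Few mitochondrial ribosomal protein genes were detected in uninjured SCs and most were detected after injury. In uninjured FoxM1fl/fl SCs 15, 16 and 4 of the 76 were above 0, and in uninjured FoxM1-cKO SCs 5, 9 and 6. In injured FoxM1fl/fl SCs the numbers were 46, 46 and 26, and in injured FoxM1-cKO SCs 56, 51 and 52. Every injured library held more of them than any uninjured library, and the injured genotypes did not overlap. When every library was brought to the depth of the shallowest by calculation, 11.1, 11.0 and 4.0 were expected in uninjured FoxM1fl/fl, 5, 8.97 and 5.84 in uninjured FoxM1-cKO, 34.6, 30.2 and 20.3 in injured FoxM1fl/fl and 35.8, 35.1 and 33.8 in injured FoxM1-cKO. The gap between injured and uninjured libraries thus remained at equal depth, and the injured genotypes overlapped. As a share, 5.26 to 21.1% of the members were above 0 in the uninjured libraries, in each of the 6 less than the share of all genes (8.55 to 24.8%), and 34.2 to 73.7% in the injured libraries, in each of the 6 more than the share of all genes (32.4 to 55.0%).

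**Figure D1:**
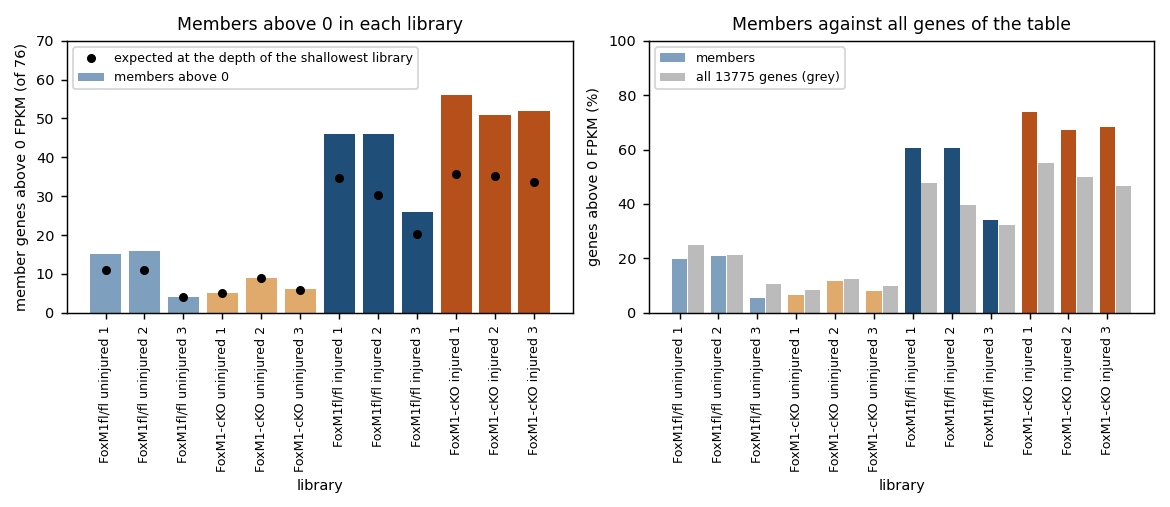
Left, mitochondrial ribosomal protein genes above 0 FPKM in each of the 12 libraries (bars, of 76; blue FoxM1fl/fl and orange FoxM1-cKO, paler where uninjured) and the number expected at the depth of the shallowest library (black points). Right, the percentage of the 76 members (coloured) and of all 13775 genes (grey) above 0. The injured libraries hold 26 to 56 members and the uninjured libraries 4 to 16.

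The uninjured genotypes shared few detected members and the injured genotypes most of them. Of the 76, 18 were above 0 in at least 1 uninjured FoxM1fl/fl library and 13 in at least 1 uninjured FoxM1-cKO library, and 5 were found in both (Mrpl10, Mrpl23, Mrpl30, Mrpl33 and Mrpl45). After injury 56 were found in FoxM1fl/fl and 74 in FoxM1-cKO SCs, 55 of them in both. 50 members were in no uninjured library, 14 were in injured FoxM1-cKO SCs alone, 1 in injured FoxM1fl/fl SCs alone (Mrps18c) and 1 in uninjured cells alone (Mrpl27). No member was above 0 in all 12 libraries, and Mrpl33 and Mrpl45 came nearest with 10. Without the 3 weighted-sum libraries the numbers were 18 and 11 in the uninjured groups with 4 in both, 56 and 74 in the injured groups with 55 in both, and 51 members were in no uninjured library. Within a group detection was uneven too: 2 of 18 members were in all 3 libraries of uninjured FoxM1fl/fl, 0 of 13 in uninjured FoxM1-cKO, 15 of 56 in injured FoxM1fl/fl and 30 of 74 in injured FoxM1-cKO. Of the members found in injured FoxM1-cKO SCs, 43.2% had over 90% of their summed FPKM in 1 library, beside 53.6% of all genes found there.

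**Figure D2:**
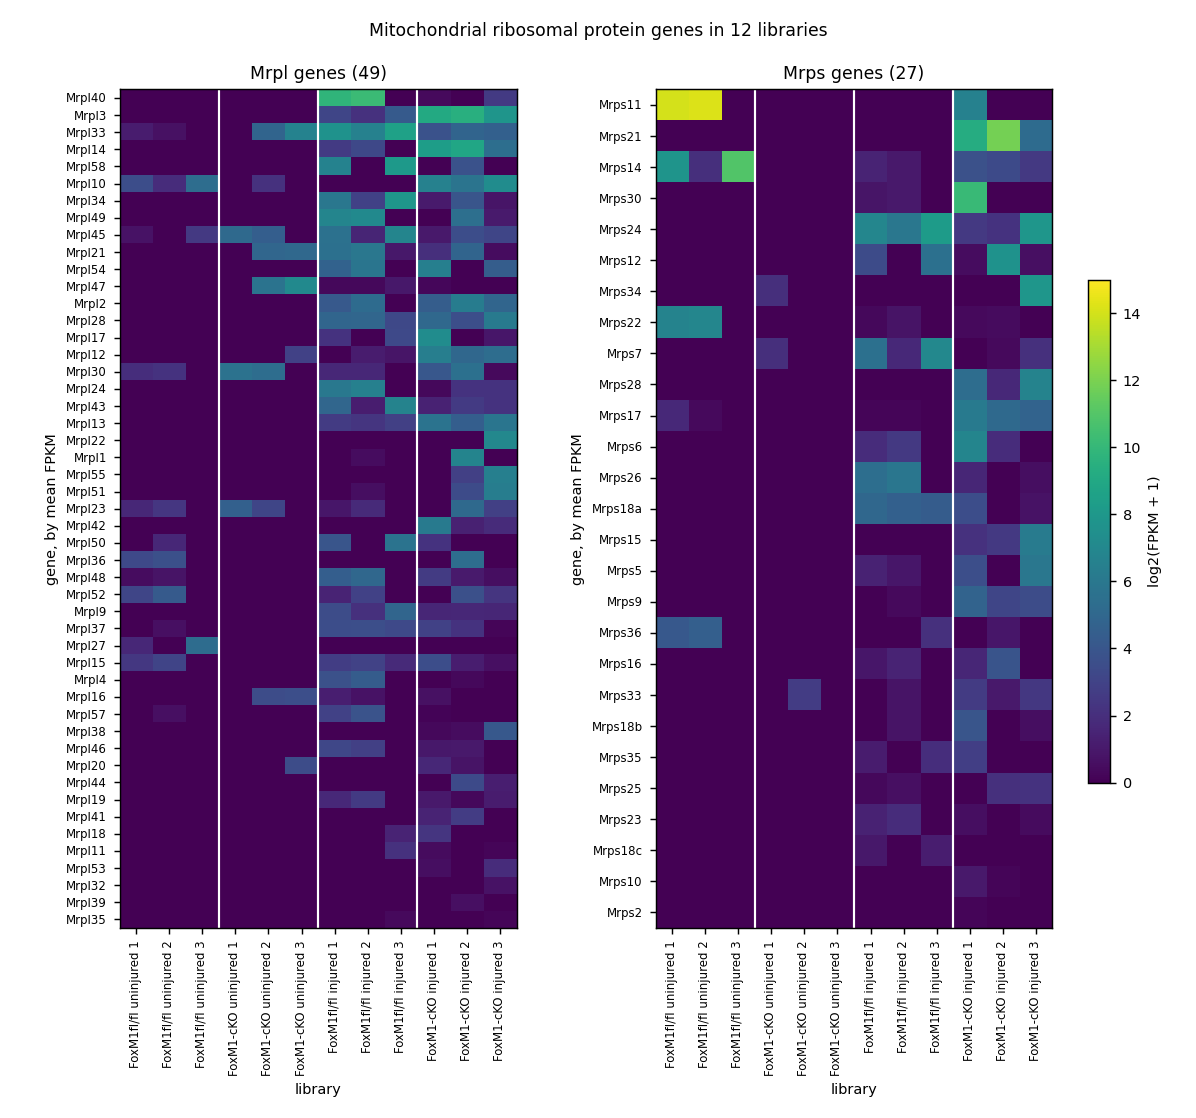
log2(FPKM + 1) of the 49 Mrpl genes (left) and the 27 Mrps genes (right) in the 12 libraries, with genes ordered by their mean FPKM and white lines between the groups. Mrps11 in uninjured FoxM1fl/fl 1 and 2 and Mrps21 in injured FoxM1-cKO 2 are the brightest cells, and most cells of the uninjured libraries are at 0.

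In the uninjured FoxM1fl/fl libraries a single member made up nearly all of the expression of the family, and in the others the top member held 13.1 to 64.2% of it. The members held 2.90, 3.10 and 0.279% of the summed FPKM in uninjured FoxM1fl/fl, 0.0159, 0.0312 and 0.0545% in uninjured FoxM1-cKO, 0.199, 0.194 and 0.188% in injured FoxM1fl/fl and 0.343, 0.762 and 0.267% in injured FoxM1-cKO. The highest of the 5 highest members by mean was Mrps11, a core protein of the small subunit's platform, at 17101 and 18626 FPKM in uninjured FoxM1fl/fl 1 and 2, 94.5 FPKM in injured FoxM1-cKO 1 and 0 in the other 9. It made up 97.8 and 99.0% of the family's FPKM in those uninjured libraries, from an estimated 10846 and 12628 reads. Mrps14, a protein of the small subunit's head, made up 95.9% in uninjured FoxM1fl/fl 3. Mrpl40, a large subunit protein particular to mitochondria, reached 895 and 1201 FPKM in the first and second libraries of injured FoxM1fl/fl, and was at 0.296 and 4.91 FPKM in injured FoxM1-cKO 1 and 3 and at 0 elsewhere, and Mrps21 and Mrpl3 complete the 5. In Mrps11 and Mrpl40 the third library of the highest group was thus at 0. Mrps30 reached 1161 FPKM in injured FoxM1-cKO 1 and 0 in the group's other libraries, and Mrps34, of the small subunit, 239 FPKM in injured FoxM1-cKO 3 alone of that group.

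In total 49 of the 76 members reached 1 FPKM in at least 3 libraries and were tested, 31 Mrpl and 18 Mrps genes, among 4956 genes. The other 27 were below that limit, among them Mrps30, Mrps34, Mrps22 and Mrpl47. Among those tested, 31 reached 1 FPKM in no uninjured library, and 5 (Mrps9, Mrps15, Mrps21, Mrps28 and Mrpl42) in injured FoxM1-cKO SCs alone, so that those 5 passed the filter through the group in which they are high. Fold changes below are differences of the group means of log2(FPKM + 1). They understate the change of low genes, and where a group is listed at 0 they depend on the added 1 and are no bound. The threshold for a call was 0.05 for the p-value of limma after Benjamini-Hochberg adjustment over all 4956 genes.

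In uninjured mice no member was called between the genotypes, beside 76 of all 4956 genes (1.53%, with 0.868% higher and 0.666% lower). At an unadjusted p under 0.05 there were 6 members and 937 genes. The median fold change was 0 for the members and for all genes, and 29 of the 49 were at 0 in all 6 libraries. Mrps14 was at 215, 3.12 and 1932 FPKM in uninjured FoxM1fl/fl and at 0 in all 3 uninjured FoxM1-cKO libraries, from 388, 6 and 1013 reads against none. It was the only member whose groups did not overlap (7.10% of all genes did not, 3.69% higher and 3.41% lower), and the difference did not pass the test (limma: log2 fold change -6.91 with SE 1.70, adjusted p = 0.0700). Leaving out FoxM1fl/fl uninjured 2 brought it past the threshold (limma, adjusted p = 0.00274). Mrps11 was not separated, because FoxM1fl/fl uninjured 3 was at 0 like the knockout libraries. Leaving out 1 library gave 1 called member (FoxM1fl/fl uninjured 2), 2 (FoxM1fl/fl uninjured 3), 2 (FoxM1-cKO uninjured 1) or 0 (any other), and the number was 0 without the 3 weighted-sum libraries. The number of all genes called moved too, from 76 to 187, 375 and 257 in the 3 fits with called members. Over the same libraries the 19 myofibre markers held 1.35 to 6.05% of the summed FPKM in FoxM1fl/fl and 11.4 to 12.6% in FoxM1-cKO, with 13 and 13 to 17 of them above 0, and their part in the values of the members was not tested.

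In injured mice 9 members were higher in FoxM1-cKO than in FoxM1fl/fl SCs and none was lower. Of all genes 7.81% were called, 5.15% higher and 2.66% lower. The 9 were 4 Mrpl genes (Mrpl3, Mrpl10, Mrpl12 and Mrpl14) of 31 tested and 5 Mrps genes (Mrps9, Mrps15, Mrps17, Mrps21 and Mrps28) of 18 tested. The median fold change of the 49 tested members was 0.11, beside 0.32 for all genes, with 25 members above 0 and 24 below. Of the 5 Mrps genes, all but Mrps17 had passed the filter through injured FoxM1-cKO SCs alone, so that they could only be higher there, and the count and the median are a description.

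Mrpl10 and Mrpl12 make the stalk of the large subunit that recruits translation factors, and both were higher in FoxM1-cKO SCs. Mrpl10 (chromosome 11, 97041560 to 97049213, plus strand, mm10) was at 95.99, 53.3 and 154 FPKM in injured FoxM1-cKO and at 0 in all 3 injured FoxM1fl/fl libraries, from 468, 154 and 543 reads (limma: log2 fold change 6.55 with SE 1.12, adjusted p = 0.00480). Mrpl12 (chromosome 11, 120484613 to 120489065, plus strand) was at 85.7, 31.9 and 39.4 FPKM against 0, 1.18 and 0.837 FPKM (4.94, SE 0.99, adjusted p = 0.00889 from limma). In both genes the lowest FoxM1-cKO library lay far above the highest FoxM1fl/fl library. The exons of Mrpl10 overlap those of Gm11574 and the exons of Mrpl12 those of Gm16755 on the other strand, and without a stated strand of counting the reads of such pairs cannot be told apart.

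Mrpl3 and Mrpl14 encode conserved core proteins of the large subunit. Mrpl3 (chromosome 9, 105053239 to 105079888, plus strand) was at 553, 701 and 221 FPKM in injured FoxM1-cKO and at 7.66, 3.33 and 17.8 FPKM in injured FoxM1fl/fl (5.64, SE 0.97, adjusted p = 0.00489 from limma). These are 6270, 4713 and 1814 reads against 39, 17 and 64, the most of any called member. Mrpl14 (chromosome 17, 45686322 to 45698495, plus strand) was at 320, 463 and 42.1 FPKM against 4.84, 8.45 and 0 FPKM (5.61, SE 1.15, adjusted p = 0.0101 from limma). FoxM1-cKO injured 3 was the lowest of its group in both genes. Mrpl3 shares exons with the predicted genes Gm38077 and Gm47106, and Mrpl14 overlaps Tmem63b on the other strand.

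The called Mrps genes encode small subunit proteins, of which Mrps9 lies in the head and Mrps15, Mrps17 and Mrps21 in the body and platform. Mrps21 (chromosome 3, 95862634 to 95871519, minus strand) was at 628, 3712 and 36.8 FPKM in injured FoxM1-cKO and at 0 in the other 9 libraries (8.80, SE 1.34, adjusted p = 0.00325 from limma). Mrps17 (chromosome 5, 129715497 to 129722556, plus strand) was at 72.4, 33.5 and 26.6 FPKM against 0.154, 0.154 and 0 FPKM (5.23, SE 0.83, adjusted p = 0.00410 from limma). The range over the FoxM1-cKO libraries was wide in Mrps21 and narrow in Mrps17. Mrps28 (chromosome 3, 8802146 to 8923918, minus strand) was at 39.4, 2.26 and 103 FPKM against 0 in every injured FoxM1fl/fl library (4.58, SE 1.03, adjusted p = 0.0157 from limma). Its value in FoxM1-cKO injured 2 comes from 3 reads. Mrps9 (chromosome 1, 42851233 to 42905683, plus strand) was at 26.0, 7.81 and 10.4 FPKM against 0, 0.322 and 0 FPKM (3.67, SE 0.62, adjusted p = 0.00473 from limma). Mrps15 (chromosome 4, 126046925 to 126055532, plus strand) was at 3.38, 4.56 and 75.3 FPKM against 0 (3.62, SE 0.89, adjusted p = 0.0242 from limma), with 10 and 8 reads behind the lower values.

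**Figure D3:**
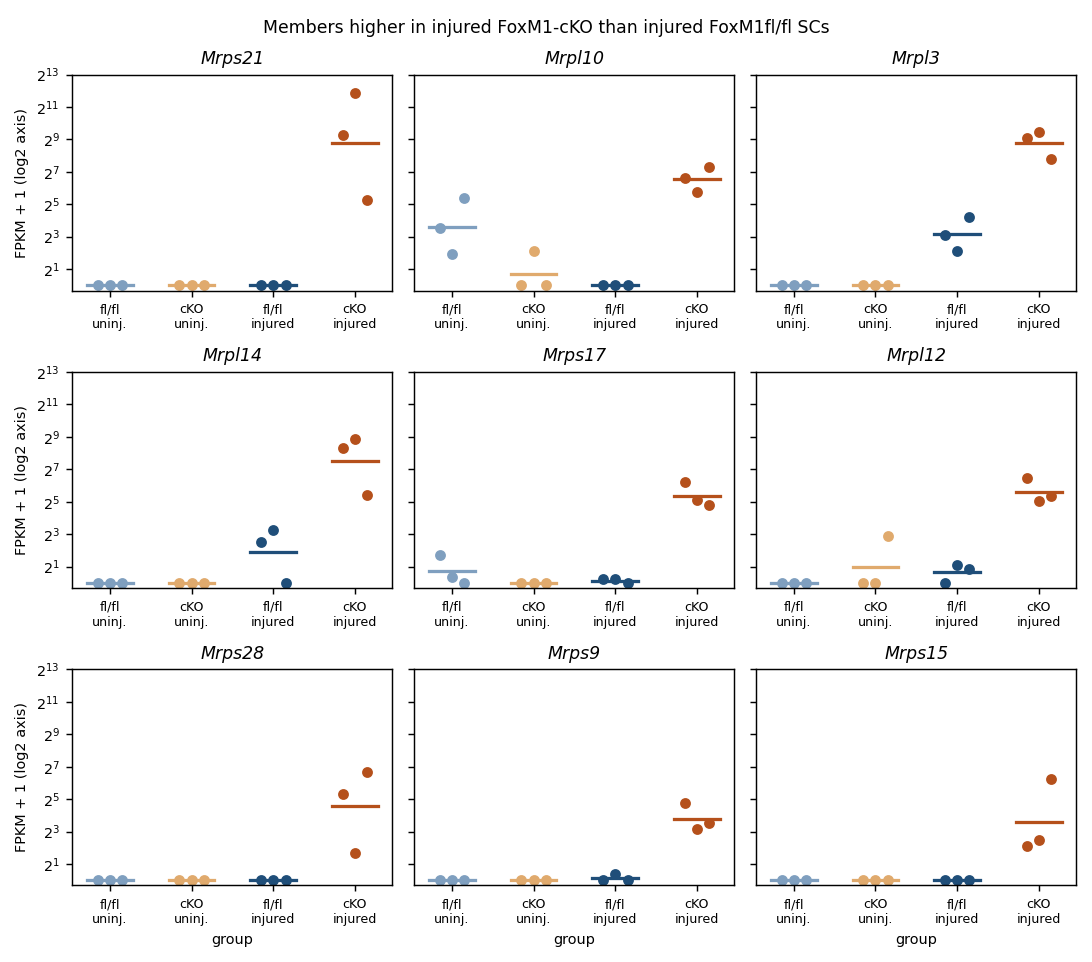
FPKM + 1 on a log2 axis of the 9 members called higher in injured FoxM1-cKO SCs, with 1 point per library and a line at the mean of log2(FPKM + 1) of the 3 libraries of a group. The injured FoxM1-cKO points lie above every other group in each panel, from 2.26 FPKM (Mrps28) to 3712 FPKM (Mrps21).

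Of the 49 tested members, 13 had no overlap between the genotypes in the higher direction (17.2% of all genes) and 4 in the lower (5.87%), beside 23.1% of all genes in either. The 4 lower were large subunit proteins, and none passed the test. Mrps18a was at 10.6, 0 and 0.655 FPKM in injured FoxM1-cKO and at 30.9, 22.8 and 19.4 FPKM in injured FoxM1fl/fl (limma: log2 fold change -3.22 with SE 0.95, adjusted p = 0.0566). Mrpl33 was at 12.7, 27.8 and 23.5 FPKM against 199, 93.8 and 375 FPKM (-3.18, SE 1.49, adjusted p = 0.219 from limma). Mrpl9 was at 2.11, 2.14 and 2.05 FPKM against 10.4, 3.29 and 29.3 FPKM (-1.88, SE 0.81, adjusted p = 0.184 from limma), and Mrpl37 at 6.51, 3.59 and 0.173 FPKM against 10.6, 11.1 and 9.05 FPKM (-1.71, SE 0.83, adjusted p = 0.240 from limma). The call of Mrps18a was made when FoxM1fl/fl injured 3 (adjusted p = 0.0355) or FoxM1-cKO injured 1 (0.00672) was left out, and that of Mrpl9 without FoxM1fl/fl injured 2 (0.0434).

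None of the 9 calls held without the 3 weighted-sum libraries, where the adjusted p was 0.288 to 0.313 from limma and 13 members had an unadjusted p under 0.05, nor when the 2 injured groups were fitted alone, where it was 0.115 to 0.256. The fold changes changed little, with Mrpl3 at 5.62 and Mrps21 at 8.80 in the first of these, and of all genes 0 and 2 were called. With single libraries left out, Mrpl3, Mrpl10 and Mrps17 were called in all 12 fits. Without FoxM1fl/fl injured 1, 5 members were called, and Mrpl12 (adjusted p = 0.0740), Mrpl14 (0.0583), Mrps15 (0.1004) and Mrps28 (0.0771) were not. Without FoxM1fl/fl injured 2 the number was 15 (9 higher, 6 lower) and without injured 3 it was 17 (10 higher, 7 lower). The number of all genes called moved with it, from 387 to 56, 431 and 662 in these 3 fits. Without any one of the injured FoxM1-cKO libraries, Mrps9, Mrps15, Mrps21 and Mrps28 no longer passed the filter. In the same libraries 3 of 6 markers of fibro-adipogenic progenitors, a neighbouring stromal cell type, were called higher in FoxM1-cKO (Pdgfra, Dpt and Lum). Col1a1 (log2 fold change 2.16), Dcn (-0.63) and Ly6a (-2.08) were not called, and Ly6a, the gene for Sca1, against which the cells were sorted, was at 0, 0 and 4.57 FPKM in FoxM1-cKO and at 11.4, 14.7 and 1.15 FPKM in FoxM1fl/fl. The 6 held 0.0181 to 0.0858% of the summed FPKM there, with 5 to 6 above 0, and 0.00676 to 0.0203% in FoxM1fl/fl, with 5 above 0. The 7 macrophage and leukocyte markers held 0.000694 to 0.0900% against 0.0384 to 0.203%, with 3 to 4 and 2 to 5 above 0. The part of either cell type in the values of the members was not tested.

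More members were called between injured and uninjured mice than between genotypes. In FoxM1fl/fl SCs 13 members were higher 48 h post-injury than in uninjured mice and 3 were lower, beside 18.8 and 1.92% of all genes (20.8% together), and the median fold change was 1.93 for members and 1.51 for all genes. Mrps24, a core protein of the small subunit's head, was at 0 in all 3 uninjured libraries and at 115, 61.1 and 300 FPKM after injury (limma: log2 fold change 7.02 with SE 1.39, adjusted p = 0.00523). Mrpl33 rose from 1.21, 0.568 and 0 FPKM to 199, 93.8 and 375 FPKM (6.99, SE 1.49, adjusted p = 0.00728 from limma). Mrpl34 was at 0 before and at 60.4, 6.42 and 238 FPKM after injury (5.58, SE 1.25, adjusted p = 0.00927 from limma), and both encode small proteins of the large subunit with bacterial counterparts. Mrps18a rose from 0 in each library to 30.9, 22.8 and 19.4 FPKM (4.64, SE 0.95, adjusted p = 0.00599 from limma), with the narrowest spread of these. Mrps7, of the small subunit's head, was at 0 before and 46.1, 2.38 and 126 FPKM after injury (4.77, SE 1.24, adjusted p = 0.0195 from limma). Exons of Mrps24 overlap those of Urgcp and exons of Mrpl33 those of Gm43809 on the same strand. Mrps7 overlaps Gga3 and Mif4gd on the other strand. The reads of such pairs may not be told apart.

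The other 8 that rose in FoxM1fl/fl SCs were large subunit genes apart from Mrps26, and all were at or near 0 in uninjured cells. Mrpl28 reached 28.3, 30.5 and 8.41 FPKM and Mrpl9 10.4, 3.29 and 29.3 FPKM. Mrpl37, Mrpl43, Mrpl40, Mrpl3, Mrpl13 and Mrps26 had log2 fold changes of 3.28, 4.29, 6.68, 3.15, 2.60 and 3.77. Of these Mrpl40 and Mrps26 were found in injured 1 and 2 alone, so their groups overlapped. The 3 that fell were Mrps11 (-9.42, SE 2.99, adjusted p = 0.0440 from limma), Mrps14 (-6.06, SE 1.70, adjusted p = 0.0268 from limma) and Mrpl10 (-3.61, SE 1.12, adjusted p = 0.0406 from limma). Mrpl10 went from 10.7, 2.74 and 40.2 FPKM, which are 11, 3 and 12 reads, to 0, and Mrps14 from 215, 3.12 and 1932 FPKM to 1.82, 1.04 and 0 FPKM. The uninjured and injured groups did not overlap in 12 members that were higher after injury (33.2% of all genes) and 2 that were lower (2.2%), and 35.4% of all genes did not overlap in either direction.

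In FoxM1-cKO SCs 14 members were higher after injury and none was lower, beside 23.4 and 1.15% of all genes (24.5% together), with a median fold change of 1.97 for members and 1.68 for all genes. They include the 9 genes of the comparison of genotypes, which uses the same injured FoxM1-cKO libraries. Mrpl3, at 0 in all uninjured FoxM1-cKO libraries, had a log2 fold change of 8.79 (SE 0.97, adjusted p = 0.000795 from limma), Mrps21 of 8.80 (SE 1.34, adjusted p = 0.00146) and Mrpl14 of 7.54 (SE 1.15, adjusted p = 0.00146). Mrpl10 stood at 0, 3.39 and 0 FPKM before injury (5.84, SE 1.12, adjusted p = 0.00356 from limma) and Mrps17 at 0 (5.36, SE 0.83, adjusted p = 0.00146). For Mrpl12, Mrps9, Mrps15 and Mrps28 the fold changes were 4.64, 3.80, 3.62 and 4.58. The other 5 were Mrpl13, Mrpl28, Mrpl2, Mrps24 and Mrpl42. Mrpl13, a core protein of the large subunit, went from 0 to 51.7, 21.1 and 57.0 FPKM (5.35, SE 0.83, adjusted p = 0.00146 from limma). Mrpl2, next to the peptidyl transferase centre, went from 0 to 20.0, 78.5 and 29.2 FPKM (5.21, SE 1.24, adjusted p = 0.00992 from limma), and Mrpl28 from 0 to 32.8, 11.3 and 68.9 FPKM (4.94, SE 0.97, adjusted p = 0.00390 from limma). Mrps24 was at 4.58, 3.56 and 238 FPKM and Mrpl42 at 73.0, 1.62 and 2.66 FPKM, and in both a single library carried most of the level. The groups did not overlap in 24 members, all higher after injury, beside 44.8% of all genes higher and 1.41% lower (46.2% together). Of the 14 called, 5 (Mrps9, Mrps15, Mrps21, Mrps28 and Mrpl42) had passed the filter through injured FoxM1-cKO SCs alone and could only be higher. Among the tested members 31 reached 1 FPKM in no uninjured library, so both counts are a description.

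**Figure D4:**
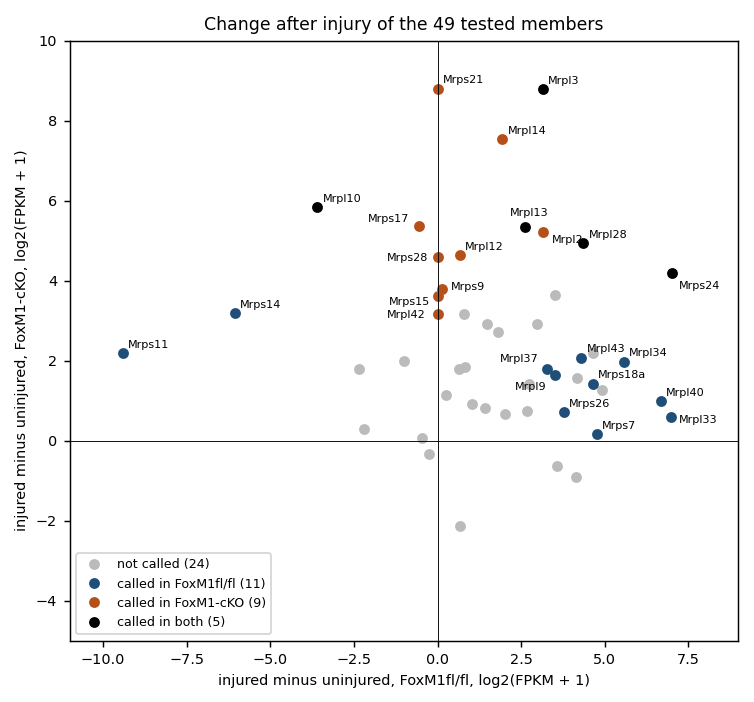
Difference of the mean log2(FPKM + 1) between injured and uninjured libraries in FoxM1fl/fl (horizontal) and FoxM1-cKO SCs (vertical) for the 49 tested members, coloured by where they were called. 5 members were called in both, of which Mrpl10 lies at -3.61 and 5.84, and Mrps11 and Mrps14 lie at the far left.

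Both genotypes shared 4 members that rose (Mrpl3, Mrpl13, Mrpl28 and Mrps24). There were 9 called higher in FoxM1fl/fl and not in FoxM1-cKO, 9 the other way round, 2 called lower in FoxM1fl/fl alone, and Mrpl10, which fell in FoxM1fl/fl and rose in FoxM1-cKO SCs. A call in one genotype and not in the other does not show a difference between them. The test of that difference, which is also the change of the knockout effect between uninjured and injured mice, called 3 members, all higher, beside 1.09% of all genes called (0.605% higher, 0.484% lower). Mrps21 was tested only through injured FoxM1-cKO SCs and is at 0 in the other 9 libraries, so its value restates that difference. The 3 were Mrpl10 (9.44, SE 1.58, adjusted p = 0.0369 from limma), Mrps21 (8.80, SE 1.89, adjusted p = 0.0432) and Mrps17 (5.93, SE 1.17, adjusted p = 0.0422). None held without the 3 weighted-sum libraries (adjusted p = 0.709 from limma), where the values were 10.18, 8.80 and 5.46, or in any of the fits without FoxM1fl/fl uninjured 1 (0 called), FoxM1-cKO uninjured 2 (0 called) or FoxM1fl/fl injured 1 (0 called). Leaving out FoxM1fl/fl uninjured 3 gave 8, FoxM1-cKO uninjured 1 gave 5 and FoxM1fl/fl injured 3 gave 9. The number of all genes called moved with these, from 54 to 382, 134 and 340, and it was 0 in the fits with 0 called members just named. Mrps21 also lost its call without FoxM1fl/fl uninjured 2, FoxM1-cKO uninjured 3 or FoxM1fl/fl injured 2 (adjusted p = 0.0501, 0.0586 and 0.0568 from limma).

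With all 3 weighted-sum libraries left out no member was called after injury in FoxM1fl/fl (10 at an unadjusted p under 0.05) or in FoxM1-cKO (14), while the fold changes stayed within 0.40 and 0.71 of those given. Mrps11, Mrpl40 and Mrps26 then no longer passed the filter. With single libraries left out, Mrps18a, Mrps24, Mrpl33 and Mrpl34 were called in FoxM1fl/fl in all 12 fits. The number called there, 16, was 5 without FoxM1fl/fl uninjured 1, 9 without uninjured 2, 5 without FoxM1fl/fl injured 1, 22 without injured 3 and 10 when FoxM1-cKO uninjured 2 was left out. Over all genes the number, 1029, was 400, 601, 323, 1416 and 695 in the same fits. In FoxM1-cKO SCs 8 of the 14 were called in all 12 fits (Mrpl2, Mrpl3, Mrpl10, Mrpl12, Mrpl13, Mrpl14, Mrpl28 and Mrps17), and the number was 9 without FoxM1-cKO injured 1. That fit called 955 of all genes, beside 1215 with every library. After quantile normalization 2 members were higher and 3 lower in FoxM1fl/fl. In the same comparisons the summed share of the myofibre markers fell to 0.0719 to 0.141% of the FPKM in injured FoxM1fl/fl and 0.0519 to 0.0896% in injured FoxM1-cKO. After injury 12 to 16 and 11 to 14 of the 19 were still above 0. Of 18 tested, 5 were called lower and 1 higher (Ttn) in FoxM1fl/fl, and 10 lower and 0 higher in FoxM1-cKO. The macrophage and leukocyte markers stood at 0 to 0.0408% in uninjured FoxM1fl/fl and at 0 in uninjured FoxM1-cKO. Ptprc, the leukocyte gene for CD45, against which the cells were sorted, was at 224, 248 and 0 FPKM in uninjured FoxM1fl/fl. It was the only marker of that list above 0 in the group, as Csf1r, C1qa, C1qb, C1qc, Cd14 and Lyz2 were at 0 there. The part of these cell types in the members' values was not tested.

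Genes that work with the mitochondrial ribosome were followed in 5 lists. Among the 4 ribosomal proteins with other symbols none was called between genotypes, and 2 rose after injury in FoxM1-cKO SCs. Aurkaip1 went from 0 to 14.2, 126 and 4.18 FPKM (4.43, SE 1.021, adjusted p = 0.00861 from limma) and Chchd1 from 0 to 4625, 621 and 86.6 FPKM (9.30, SE 2.47, adjusted p = 0.0170 from limma), both of the small subunit. In FoxM1fl/fl SCs Chchd1 was already at 524, 0 and 6175 FPKM before injury and at 153, 228 and 55.5 FPKM after, and it was not called there. Among 7 assembly factors, Trub2, a pseudouridine synthase, rose after injury in FoxM1fl/fl (1.97, adjusted p = 0.0278 from limma) and Mettl17, which assists the small subunit, in FoxM1-cKO (3.43, adjusted p = 0.0360 from limma). Mettl17 was at 110, 1.04 and 4.56 FPKM in injured FoxM1-cKO SCs, so that 1 library carried most of its level. It reached 1 FPKM in no other group, passed the filter through this group and could only be higher there.

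Of 7 mitochondrial translation factors, 1 was lower in injured FoxM1-cKO SCs. Gfm1, the elongation factor that moves the ribosome along the mRNA, was at 16.5, 24.3 and 1.35 FPKM in injured FoxM1fl/fl and at 0 in the other 9 libraries (limma: log2 fold change -3.34 with SE 0.76, adjusted p = 0.0163). It was also called higher after injury in FoxM1fl/fl (3.34, adjusted p = 0.00980). Tufm, the factor that delivers aminoacyl-tRNA, went from 0 to 17.2, 225 and 282 FPKM after injury in FoxM1-cKO (6.72, SE 1.97, adjusted p = 0.0258 from limma), and Oxa1l, which inserts new proteins into the inner membrane, fell in FoxM1fl/fl from 51.8, 1.84 and 489 FPKM to 0.307, 1.23 and 0 FPKM (-4.87, SE 1.57, adjusted p = 0.0452 from limma). Of 3 tested aminoacyl-tRNA synthetases, Kars rose after injury in FoxM1fl/fl (5.85, adjusted p = 0.00461 from limma) and FoxM1-cKO (3.75, adjusted p = 0.0283), and Gars in FoxM1-cKO (7.17, adjusted p = 0.00146). Both of these enzymes serve the cytosol as well. Of 4 genes for mitochondrial DNA transcription and replication, Polg, the mitochondrial DNA polymerase, was at 7.47, 12.6 and 1.41 FPKM in injured FoxM1fl/fl and at 0, 0 and 0.247 FPKM in injured FoxM1-cKO (-2.60, SE 0.63, adjusted p = 0.0221 from limma). It was called higher after injury in FoxM1fl/fl (2.71, adjusted p = 0.0110). In the comparison of injured genotypes these lists thus held 2 calls, both lower. Gfm1 and Polg reached 1 FPKM in injured FoxM1fl/fl SCs alone and passed the filter through that group. They could only be lower in injured FoxM1-cKO and higher after injury in FoxM1fl/fl, so their shared direction is a description. Without the 3 weighted-sum libraries the lists held 0 calls in any comparison.

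The proteins of the cytosolic ribosome are a family of like function, and all 79 of those in the table were tested. In injured mice 1 of them was higher in FoxM1-cKO and none lower, with a median fold change of 0.42 beside 0.11 for the mitochondrial family. In uninjured mice 4 were higher and 1 lower, with a median of 1.63. After injury 44 of 79 rose in FoxM1fl/fl (median 4.32) and 29 of 79 in FoxM1-cKO (median 3.13), beside 13 and 14 of the 49 mitochondrial members (medians 1.93 and 1.97). The difference between the families was not tested. The cytosolic genes all passed the filter and 27 of the 76 mitochondrial ones did not, so the counts stand at different levels of expression. Without the 3 weighted-sum libraries 0 of the 79 were called.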

How the data were processed

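RNA of about 800 sorted SCs per library was measured in 12 libraries, in triplicate for 4 groups. Alignment by the authors used Bowtie 0.12.9 and the mm10 genome; expression came from Cufflinks 2.1.1, and the authors tested HTSeq counts, which are not used here, with DESeq2. Analysed here were the deposited FPKM of 13775 genes, and the strand of counting is not given in the sources used here. The table spells the control columns with 2 letters of the titles transposed. All columns of values were used.

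Genes reaching 1 FPKM in 3 or more libraries (4956) were tested on log2(FPKM + 1) with limma 3.58.1 in R 4.3.3 (4 group means over all 12 libraries, moderated variances with a trend, Benjamini-Hochberg over all tested genes, adjusted p under 0.05). The procedure was also tested on simulated data. Depth was recovered as the read number at which FPKM are whole multiples of 1 read, and the members' values were whole reads within 0.02 read plus 0.1% at the longest GENCODE M21 transcript for 69 genes and at another length for 7. The tolerance grows with the read number, so that high counts could not fail it, and 1421 lengths passed for Mrps11. Such reads are estimates. The number expected at the lowest depth was computed from the members' reads. No intervals are given, and counting error is 1 part of the spread only. Promoters are from RefSeq (GRCm38.p6), where 69 of 76 members matched by symbol, with Mrps28 among those that did not.

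Named are the members called in any comparison, the 5 highest and 5 lowest fold changes per comparison of 2 groups among tested members without overlap where the higher group averages 5 FPKM or more, the 5 highest means, members above 0 in every library (there were 0), and the called genes of 5 mitochondrial lists. Other members are named in counts and in descriptions of detection, chosen after their values were seen. The members, lists and rule were chosen with earlier results of these data known. As alternatives, the pseudocount was 0.1 or 5, the filter was dropped or raised to 5 FPKM, values were scaled by median ratios over 154 genes or quantile normalized, array weights or a replicate block were added, the trend was dropped, or 2 groups were fitted alone, with each library, or the 3 weighted-sum libraries together, left out as further settings. Python 3.11.15 with pandas 2.3.3, numpy 2.4.6 and matplotlib 3.10.9 served for tables and plots.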

Additional observations from a re-analysis of the deposited data

Results flagged for a closer look

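Between 2 conditions, the knockout effect differed by a test of the difference itself in 3 members. On the log2(FPKM + 1) scale the effect in injured mice minus that in uninjured mice was 9.44 for Mrpl10, 8.80 for Mrps21 and 5.93 for Mrps17 (limma, adjusted p = 0.0369, 0.0432 and 0.0422). For Mrpl10 the knockout effect was 6.55 in injured mice, where all 3 FoxM1fl/fl libraries were at 0, and in uninjured mice it was -2.89 and not called, with groups that overlapped (11, 3 and 12 reads in FoxM1fl/fl against 0, 1 and 0). Mrps21 was at 0 in both uninjured groups, and was tested only through injured FoxM1-cKO, so its difference equals its effect in injured mice and adds nothing to it. Mrps17 was at 2.30, 0.308 and 0 FPKM in uninjured FoxM1fl/fl and at 0 in uninjured FoxM1-cKO. Adjusted p-values over the alternatives ran from 0.00105 to 0.709 for Mrpl10 and from 0.000275 to 0.709 for Mrps17 and Mrps21.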

How the results depend on the processing

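In FoxM1-cKO against FoxM1fl/fl SCs the number of members called in uninjured mice, 0, was 1 at pseudocount 0.1, 2 with median-ratio scaling, 1 after quantile normalization and 14 with array weights, and 0 to 2 with each library left out in turn. In injured mice the number, 9, was 5 after quantile normalization, 24 with array weights (11 higher, 13 lower), 0 when the 2 groups were fitted alone and 0 without the 3 weighted-sum libraries, and 5 to 17 with each library left out. For the difference between the conditions the number, 3, was 7 with a pseudocount of 0.1, 0 with 5, 0 without a filter, 6 with at least 5 FPKM in 3 libraries, 0 after quantile normalization, 33 with array weights, 5 with no trend, 0 without the 3 weighted-sum libraries, and 0 to 9 with each library left out. After injury in FoxM1fl/fl SCs the number, 16, was 8 with a pseudocount of 5, 6 without a filter, 5 after quantile normalization, 9 for the 2 groups alone, 40 with array weights, 0 without the 3 weighted-sum libraries, and 5 to 22 with each library left out. After injury in FoxM1-cKO SCs the number, 14, was 3 after quantile normalization, 0 without the 3 weighted-sum libraries, and 9 to 15 with each library left out. The number of called members stayed within 1.5 times under the alternatives not named, apart from the replicate block for the difference, where it was 0. The calls over all genes moved too: with array weights there were 2152 between uninjured and 1220 between injured genotypes, 2019 for the difference and 4221 after injury in FoxM1fl/fl, quantile normalization 145, 137, 0, 340 and 167 genes in the 5 comparisons, and without the 3 weighted-sum libraries 0 in each. The causes were not tested. Where a library was left out, the group's remaining 2 libraries gave its spread together with the other groups.

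With the replicate number as a block, 0, 9, 0, 13 and 14 members were called in the 5 comparisons in the order above, so the block ended the 3 calls of the difference (adjusted p = 0.0959 for Mrpl10 and 0.0988 for Mrps17 and Mrps21). Same-numbered libraries showed little shared deviation from their group means (correlations of -0.0316 to 0.0545). Of 12 same-numbered pairs, 6 correlated better than the pairs with another number. These values do not settle whether the numbers pair the libraries. Median-ratio scaling moved the median fold change of all genes after injury in FoxM1fl/fl from 1.51 to 1.09 and quantile normalization to 0.14, and in the injured comparison of genotypes from 0.32 to 0.12 and 0.07. For the single members named, 797 results kept their side of the threshold, 215 lost it, 13 gained it and 0 changed sign. Depth limits what the uninjured libraries can show: with 170701 reads in the shallowest, 1 read of Mrps34 stood for 3.11 FPKM there, so that a member at 0 was not detected, which at this depth does not show that it is absent.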

Other observations

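Mrpl23-ps1, a pseudogene of Mrpl23 that was left out of the family, was listed at 10.1 FPKM in FoxM1-cKO uninjured 1, 5.38 FPKM in FoxM1fl/fl injured 1, 27.5 and 13.4 FPKM in FoxM1-cKO injured 2 and 3, and at 0 in the other libraries. Mrpl23 itself was at 23.7, 0.840, 33.5 and 6.27 FPKM in those 4, and reads of near-identical copies can be split between them. Exons of Mrps11 and Mrpl46 overlap on opposite strands. Mrps11 was at 17101 and 18626 FPKM in FoxM1fl/fl uninjured 1 and 2, where Mrpl46 was at 0, and Mrpl46 was at 8.26 and 6.18 FPKM in FoxM1fl/fl injured 1 and 2, where Mrps11 was at 0.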
